A study of Mus musculus with 14 samples.

Results

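Imprinted genes outside the Peg3 domain were examined in 14 mouse glioblastomas. The set was a list of 40 genes, taken with every array probe that the platform annotation gives to them and that had a detection p under 0.05 on at least 3 of the 14 arrays. Of the 40 genes, 36 had a named probe and 26 were kept, with 56 probes, out of 11786 genes and 18430 named probes kept in all. The genes with no probe named for them were H19, Snrpn, Zrsr1 and Airn. Those with probes that were not kept were Plagl1, Magel2, Peg10, Sgce, Asb4, Slc22a18, Ascl2, Peg12, Calcr and Tfpi2.

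Each tumour arose in a mouse of mixed background that was given tamoxifen by gavage, 10 mg per 20 g of body weight, at an age of 6 to 8 weeks, and was then kept until symptoms appeared. In 7 Type 1 mice the tamoxifen-dependent Cre was Nestin-CreERT2, driven by a promoter active in neural stem and progenitor cells. In 7 Type 2 mice it was NG2-CreERTM, driven by a promoter active in oligodendrocyte progenitors and pericytes. The alleles recombined by Cre were shared by the types and included Nf1f/+, Trp53f/f and Rosa-lsl-tdTom. No untreated tissue was among these samples, so the types are compared with each other, 3 Type 1 and 4 Type 2 tumours in batch 1 and 4 and 3 in batch 2. Each of the 5 chips held a single type, so chip and type cannot be told apart.

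An imprinted gene is transcribed mainly from the allele of a single parent. The choice is set by DNA methylation laid down in the germ line at imprinting control regions, which the zinc finger protein ZFP57 and its partner TRIM28 protect after fertilization. Many genes active on the paternal allele promote growth of the embryo and several active on the maternal allele restrain it, and a number of them stay active in the brain. The arrays measured RNA of both alleles together and carry no information on which allele was transcribed. The tumours are bulk tissue, so fewer cells of a type and less RNA per cell cannot be told apart.

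The sequences of a few imprinted promoters are shown because the RNA of the first pair was near background in the same tumour, and because the third drives the imprinted transcript outside the Peg3 domain that passed the type test. Each is 250 bases before and 50 after a transcription start from the RefSeq table (GRCm38.p6), read 5′ to 3′ on the gene's strand, with capitals marking TGCCGC or its reverse complement GCGGCA, the hexamer that ZFP57 recognizes when its CpG is methylated. They lie at chr6:30737800-30738099 on the + strand (Mest), chr6:58907077-58907376 on the - strand (Nap1l5) and chr7:60005150-60005449 on the - strand (Snurf).
Mest: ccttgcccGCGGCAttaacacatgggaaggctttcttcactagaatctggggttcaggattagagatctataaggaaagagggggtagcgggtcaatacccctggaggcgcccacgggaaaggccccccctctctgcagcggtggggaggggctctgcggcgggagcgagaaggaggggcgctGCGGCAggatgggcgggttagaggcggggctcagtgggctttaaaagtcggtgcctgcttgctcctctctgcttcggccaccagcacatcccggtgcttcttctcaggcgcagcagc
Nap1l5: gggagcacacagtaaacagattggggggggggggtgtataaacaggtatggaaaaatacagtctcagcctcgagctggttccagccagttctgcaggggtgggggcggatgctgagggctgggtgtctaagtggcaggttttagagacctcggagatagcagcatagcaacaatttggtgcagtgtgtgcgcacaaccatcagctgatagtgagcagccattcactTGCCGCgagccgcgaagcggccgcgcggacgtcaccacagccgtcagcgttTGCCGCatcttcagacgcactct
Snurf: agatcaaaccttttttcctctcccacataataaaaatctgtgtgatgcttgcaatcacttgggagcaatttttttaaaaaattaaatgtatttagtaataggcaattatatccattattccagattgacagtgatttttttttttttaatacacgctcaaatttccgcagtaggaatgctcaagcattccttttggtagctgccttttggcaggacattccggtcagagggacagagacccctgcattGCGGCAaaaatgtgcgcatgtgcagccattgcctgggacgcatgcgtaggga
Where a gene had several windows, the one with the most hexamers is shown. The Mest and Nap1l5 windows shown each held 2 hexamers and 17 CpG dinucleotides, and the Snurf window held 1 hexamer and 7 CpG. Another Mest window, at chr6:30733256-30733555, held 0 hexamers and 8 CpG. Of all 32851 promoter windows of this length, 11.6% held the hexamer on either strand and 1.53% held at least 2. Their median was 7 CpG, and windows were not matched for CpG. Of the 26 measured genes, 24 had at least 1 window, 36 in all, and the hexamer was in 9 of the 36 windows, those of 8 genes. The 9 include 2 Mest windows that overlap, the one shown and chr6:30737803-30738102. Mest and Nap1l5 were the 2 genes with at least 2 copies in a window. Cdkn1c and Impact were not matched in the table. A match describes letters in the window and says nothing about binding or methylation.

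Values are normalized log2 signals, and differences are Type 1 minus Type 2 on that scale from limma with batch as a term, adjusted over all genes. None of the 26 imprinted genes differed between the types at an adjusted p under 0.05, where 4.64% of all genes did, and 7 of 26 had an unadjusted p under 0.05, against 21.8% of all genes. The difference was above 0 for 18 of 26, against 49.4% of all genes, and the median was 0.22 against -0.01 over all genes. The 2 types overlapped for every one of the 26, while 1.23% of all genes had types that did not overlap. The sign was the same in both batches for 10 of 26, against 54.7% of all genes. In the Peg3 domain, by contrast, Peg3 differed by 2.32 ± 0.23 (SE) and Usp29 by 2.89 ± 0.25 (SE), with limma adjusted p-values of 0.000304 and 0.000125. Neither of these overlapped between the types.

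**Figure D1:**
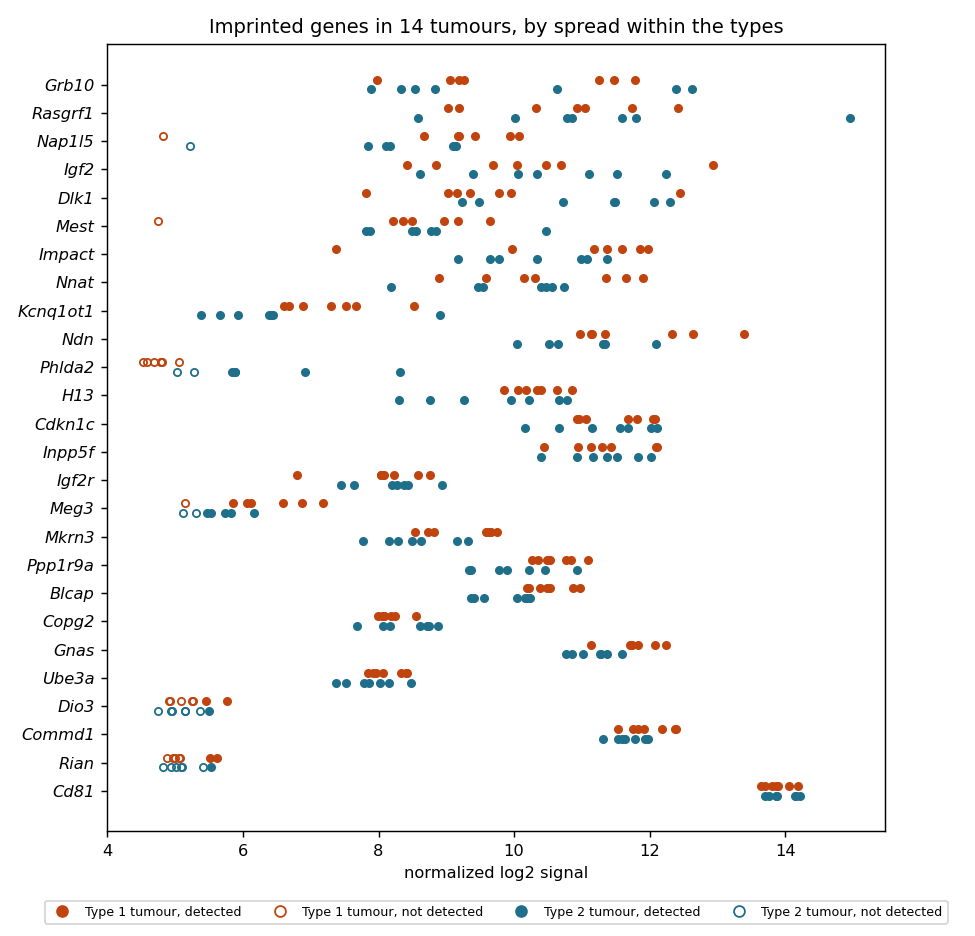
Normalized log2 signal (horizontal axis) of the 26 imprinted genes in each of 14 tumours, Type 1 in orange and Type 2 in blue, with open circles for arrays on which the probe was not detected; genes are ordered by their spread within the types. Mest and Nap1l5 fell to open circles in single tumours, at 4.75 and 4.82 in Type 1 replicate 6, and Phlda2 was detected on 0 Type 1 arrays.

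**Figure D2:**
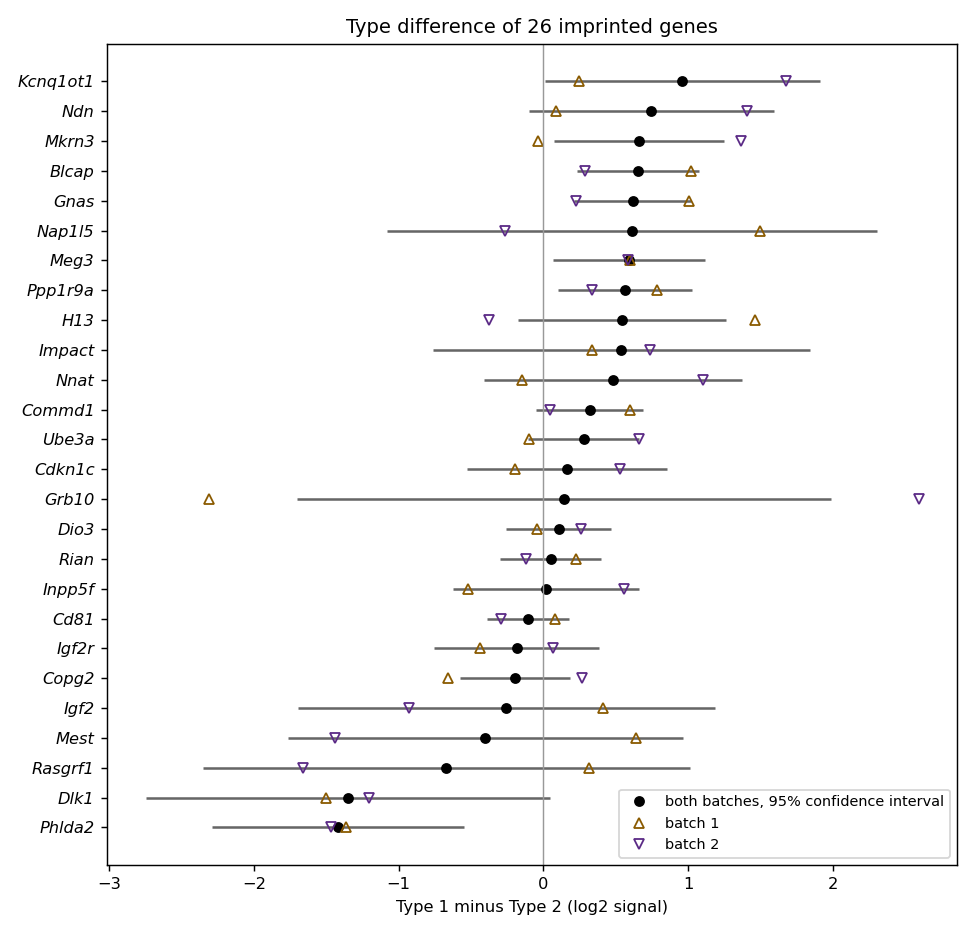
Difference Type 1 minus Type 2 in log2 signal for the 26 genes, with black points and 95% confidence intervals for both batches together and triangles for each batch. No gene passed the adjusted test, and Grb10 lay at -2.31 in batch 1 and 2.59 in batch 2.

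The type differences that passed at the level of single probes were in Gnas and H13. Gnas encodes the stimulatory G protein alpha subunit and, from upstream promoters, several imprinted transcripts. When each probe was fitted on its own row, 3 of the 56 probes passed, all with more signal in Type 1, where 4.29% of all probes passed and 2.11% did so in that direction. Of these 3 probes, 2 belonged to Gnas, of which ILMN_3075080 was kept through Type 1 alone, and 1 to H13. A further 15 had an unadjusted p under 0.05, so 18 of 56 did, against 21.1% of all probes.

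Gnas probe ILMN_2483957, which has no transcript accession in the annotation, read 8.08, 9.04, 9.58, 6.68, 7.01, 5.50 and 5.65 in Type 1 replicates 1 to 7. In Type 2 it read 6.65, 5.45, 5.62, 5.53, 5.35, 4.78 and 5.40. Type 1 replicates 1 to 3, which are the batch 1 tumours, were the highest, and the types overlapped through Type 1 replicates 6 and 7. It differed by 2.06 ± 0.40 (SE; limma adjusted p = 0.0137), by 3.09 in batch 1 and 1.03 in batch 2, and was detected on 7 of 7 and 4 of 7 arrays.

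Gnas probe ILMN_3075080, annotated to a non-coding RefSeq transcript of the locus, read 6.56, 7.53, 7.51, 5.89, 6.39, 4.91 and 4.65 in Type 1, where it was detected on the first 5 of these arrays. In Type 2 it was not detected on any of 7 arrays, with values between 4.51 and 4.90. The mean of 6.20 in Type 1 stood against 4.68 in Type 2 and was at least 1.76-fold higher, with a limma adjusted p of 0.0182. This bound compares the mean of the brighter type with the lowest signal of detected probes on the dimmer arrays, and leaves out the spread between tumours. The probe was kept through Type 1 alone, so its p-value, bound and direction are no support for a difference.

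The probe with the highest signal of the 8 Gnas probes, annotated to a coding transcript, did not pass. It read 12.08, 11.71, 12.25, 11.83, 11.72, 11.14 and 11.74 in Type 1 and 10.86, 11.37, 11.01, 10.77, 11.28, 11.60 and 11.27 in Type 2. Only Type 1 replicate 6 reached into the range of Type 2. The difference was 0.62 ± 0.19 (SE; 95% confidence interval 0.21 to 1.02; limma adjusted p = 0.0735), 1.01 in batch 1 and 0.22 in batch 2. The differences of the 8 Gnas probes ran from 0.15 to 2.06. Of these, ILMN_3075080 and ILMN_2638324 were detected on 5 and 3 Type 1 arrays and 0 Type 2 arrays, so they were kept through Type 1 alone and their direction is no support for a difference. Of 6 measured genes that start within 500 kb of Gnas, 0 were called by limma, and the antisense gene Gnasas1 differed by 0.13. Of the 6, Atp5e had an unadjusted p under 0.05.

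H13 encodes signal peptide peptidase, an intramembrane protease, and has transcripts that differ in which parental allele they use. Its probe ILMN_1212794 read 9.06, 8.95, 8.48, 8.96, 9.05, 9.06 and 9.38 in Type 1 and 7.15, 8.24, 6.47, 6.51, 9.07, 8.06 and 8.64 in Type 2. The Type 1 tumours lay within 1 log2 unit of each other, and the low values of Type 2 were those of replicates 1, 3 and 4, all of batch 1. The difference was 1.13 ± 0.30 (SE; limma adjusted p = 0.0491), 1.74 in batch 1 and 0.53 in batch 2, and the call was lost in 21 of 29 alternative settings. The differences of the 8 H13 probes ran from 0.07 to 1.13, and ILMN_2878620 was kept through 4 Type 1 arrays and 0 Type 2 arrays. The probe that stands for the gene differed by 0.54 (95% confidence interval -0.17 to 1.26). That probe differed by 1.46 in batch 1 and -0.37 in batch 2. Of 19 measured neighbours of H13 within 500 kb, 1 was called, where 4.64% of all genes were. This was Id1, an inhibitor of bHLH transcription factors, at 1.00 ± 0.17 (SE, limma adjusted p = 0.00782).

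**Figure D3:**
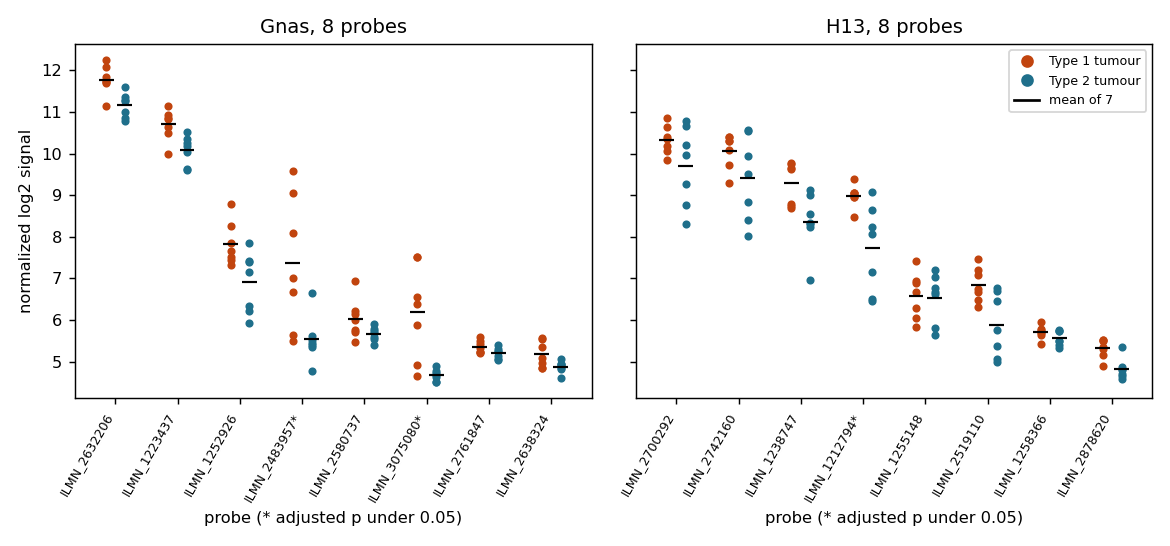
Normalized log2 signal of the 8 kept Gnas probes (left) and the 8 kept H13 probes (right) in each tumour, Type 1 in orange and Type 2 in blue, with black bars for the mean of 7 and asterisks for probes past the adjusted test. The 2 called Gnas probes were spread over several log2 units within Type 1, and ILMN_3075080 was detected on 5 Type 1 arrays and 0 Type 2 arrays.

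All 4 measured imprinted genes of chromosome 2 had differences above 0, with a median of 0.58. Nnat, which encodes neuronatin, a small membrane protein of the endoplasmic reticulum, differed by 0.48 and its host gene Blcap by 0.65 ± 0.20 (SE; 95% confidence interval 0.23 to 1.07; limma adjusted p = 0.0695). Blcap ranged from 10.19 to 10.97 in Type 1 and from 9.36 to 10.24 in Type 2, so only the edges of the ranges overlapped. All 915 measured genes of chromosome 2 together had a median of 0.26. Mature neuron markers were set beside these genes. Of 14 listed markers 10 were measured, with Snap25 and Nefl among those not kept. All 10 had differences above 0 with a median of 1.15, and 2 passed, higher in Type 1, against 2.32% of all genes. Their summed signal ran from 6025 to 17204 in Type 1 and from 1671 to 16046 in Type 2. With their mean as a covariate the 2 Gnas probes differed by 1.74 and 1.15 and were no longer called, with limma adjusted p-values of 0.108 and 0.148. With the mean of the fibroblast and meningeal markers as a covariate they differed by 2.30 and 1.97 and were not called either, with limma adjusted p-values of 0.139 and 0.133. Of all genes 33 and 20 were called under these settings. Without Type 1 replicate 2 the probe ILMN_3075080 differed by 1.47 (limma adjusted p = 0.0508).

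The only other imprinted transcript called was Snurf, a small protein gene that shares a transcript with the listed gene Snrpn in the Prader-Willi and Angelman domain. It belongs to a list of 37 further imprinted genes, of which 21 were measured. Of those, 1 passed, higher in Type 1, where 4.64% of all genes passed and 2.32% did so in that direction. The other 20 missed the threshold, and the median difference of the 21 was -0.08. Snurf read 13.23, 12.94, 12.67, 13.04, 12.93, 12.77 and 12.38 in Type 1 and 12.28, 12.09, 12.21, 11.69, 11.84, 12.62 and 12.28 in Type 2. Type 2 replicate 6 alone reached into the Type 1 range. The difference was 0.71 ± 0.18 (SE; limma adjusted p = 0.0393), 0.88 in batch 1 and 0.54 in batch 2, and a second probe differed by 0.94. Snurf lost its call in 14 of 30 alternative settings. Among them were the neuron covariate, where it differed by 0.40, and the fibroblast covariate, where it differed by 0.85. With each of the 14 tumours left out in turn it was called in 5 cases, with limma adjusted p-values from 0.0244 to 0.0864.

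Of the listed genes of that domain, Mkrn3, a makorin family ubiquitin ligase gene, ranged from 8.53 to 9.75 in Type 1 and from 7.77 to 9.33 in Type 2. It differed by 0.66 (with a 95% confidence interval from 0.08 to 1.25 and a limma adjusted p of 0.176), by -0.04 in batch 1 and 1.36 in batch 2. Ndn, which encodes the growth-restraining protein necdin of neurons, differed by 0.75, with 13.39 in Type 1 replicate 6 as its highest value. Ube3a, the ubiquitin ligase gene whose maternal loss causes Angelman syndrome in humans, differed by 0.28.

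Among the growth regulators, Igf2, which encodes insulin-like growth factor 2, ran from 8.42 to 12.93 over the tumours, a 22.7-fold range, with no type difference that passed (-0.26, 95% confidence interval -1.70 to 1.18). It read 12.93, 8.85, 10.47, 9.70, 10.04, 8.42 and 10.69 in Type 1 and 12.25, 9.40, 11.10, 8.60, 10.34, 10.06 and 11.53 in Type 2. Type 1 replicate 1 was the highest for Igf2 and also had the highest summed signal of choroid plexus markers, 30163. Next in those markers came Type 2 replicate 5, at 14957, whose Igf2 was 10.34. The other 12 tumours lay between 418 and 2638.5. Of 15 choroid plexus markers 10 were measured and 0 differed between the types; Kcnj13, Kl, Slc4a5, Prlr and Kcne2 were not kept. Their part in the Igf2 level was not tested. Igf2r, which encodes the receptor that clears IGF2, differed by -0.19 (95% confidence interval -0.76 to 0.38).

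Grb10, an adaptor that dampens insulin and IGF receptor signalling, had the widest spread within the types of the 26 genes. It read 7.98, 9.19 and 9.05 in the Type 1 tumours of batch 1 and 11.26, 11.78, 9.27 and 11.47 in those of batch 2. In Type 2 it read 10.63, 8.54, 12.40 and 12.63 in batch 1 and 8.83, 7.89 and 8.33 in batch 2. The types were thus ordered in opposite ways in the 2 batches, with differences of -2.31 ± 0.84 (SE) and 2.59 ± 0.84 (SE). The type by batch interaction had an unadjusted limma p of 0.00113 and did not pass adjustment (adjusted p = 0.112). The second Grb10 probe differed by -1.30 and 1.63 in the batches. Across the 26 genes, 0 interactions passed limma's adjusted test, where 0% of all genes did, and 6 had an unadjusted p under 0.05, against 16.4% of all genes. These were Grb10, H13, Copg2, Mkrn3, Ube3a and Gnas. By the probe that stands for each gene, 0 of the 26 differed between batches at a limma adjusted p under 0.05, where 10.7% of all genes did. Of the 56 probes 3 did, where 11.4% of all probes did, and 8 had an unadjusted p under 0.05. These were the called Gnas probe ILMN_2483957, at -1.66 for batch 2 minus batch 1 (limma adjusted p = 0.0161), and a probe each of Commd1 (0.84; adjusted p = 0.0250) and Nnat (1.38; adjusted p = 0.0348).

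Of 16 genes of the IGF axis, 14 were measured. Of those, 1 passed, higher in Type 2, where 4.64% of all genes passed and 2.32% did so in that direction. The other 13 missed the threshold, and the median difference of the 14 was -0.15. The called gene was Igfbp7, whose secreted protein binds IGFs weakly and is made by vessel endothelium. It ranged from 10.84 to 12.12 in Type 1 and from 11.84 to 13.08 in Type 2, and differed by -1.20 ± 0.21 (SE; limma adjusted p = 0.00903). It lost this call in 3 of 30 alternative settings, which were batch 1 alone and the neuron and fibroblast covariates. Endothelial and mural markers were all 15 measured, with a median of -0.76. Of these markers 3 were higher in Type 2, against 2.32% of all genes. Their summed signal ran from 3439 to 7583 in Type 1 and from 7736 to 14160 in Type 2. Their part in the Igfbp7 difference was not tested.

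In the Kcnq1 domain, Phlda2, whose protein restrains placental growth, was not detected on any Type 1 array, with values from 4.52 to 5.05. It read 5.03, 5.28, 5.88, 8.32, 5.83, 5.88 and 6.92 in Type 2 and was detected in all but replicates 1 and 2. Type 2 replicate 4 was the highest, and the types overlapped at 5.03. The Type 2 mean of 6.16 was at least 1.69-fold above the Type 1 mean of 4.75, and the test was not passed (limma adjusted p = 0.0596). The probe was kept through Type 2 alone, so its p-values, bound and direction are no support for a difference in any setting. With each of the 14 tumours left out in turn the limma adjusted p ran from 0.0285 to 0.123 and passed in 3 cases, without Type 2 replicate 1, 2 or 4 (0.0378, 0.0440 and 0.0285). It was 0.105 without the detection filter and 0.383 with the fibroblast covariate. With that covariate the difference was -1.26, against -1.42 in the main fit, while calls over all genes fell from 547 to 20. Fibroblast and meningeal markers, 12 of 14 measured with Col3a1 and Dpt not kept, had a median of -0.44. Of these markers 3 were higher in Type 2, against 2.32% of all genes. Their summed signal ran from 3782 to 10546 in Type 1 and from 6802 to 19519 in Type 2. After type and batch means were subtracted, the mean of these markers had a Pearson r of 0.10 with Phlda2 (permutation p = 0.819, adjusted p = 0.980). Their part in the Phlda2 level was not otherwise tested.

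Kcnq1ot1, the long non-coding RNA that silences neighbours on the paternal chromosome, read 7.30, 6.88, 7.66, 6.68, 7.52, 8.53 and 6.60 in Type 1. In Type 2 it read 8.91, 6.42, 6.38, 6.44, 5.66, 5.39 and 5.92. All Type 2 tumours but replicate 1 lay below every Type 1 tumour. The difference was 0.96 (95% confidence interval 0.01 to 1.91; limma adjusted p = 0.225). With each of the 14 tumours left out in turn the limma adjusted p ran from 0.0307 to 0.358, and it passed in 1 case, without Type 2 replicate 1, the tumour that stood apart. Cdkn1c, which encodes the cell cycle inhibitor p57, differed by 0.17 and Cd81, a tetraspanin, by -0.11.

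In the Dlk1-Dio3 domain Dlk1 and the non-coding RNA Meg3 pointed opposite ways, and neither passed. Dlk1, which encodes a transmembrane protein of the Delta family, read 9.35, 9.16, 9.78, 7.81, 9.95, 9.02 and 12.45 in Type 1 and 11.47, 12.30, 9.23, 10.72, 12.06, 9.48 and 11.49 in Type 2. Type 1 replicate 7 had the highest value of all tumours, while the other Type 1 tumours stayed below 10. The difference was -1.35 (95% confidence interval -2.74 to 0.04; limma adjusted p = 0.246), -1.50 in batch 1 and -1.20 in batch 2. Meg3, a non-coding RNA of the maternal allele, ranged from 5.14 to 7.19 in Type 1 and from 5.11 to 6.17 in Type 2 and differed by 0.59 (with a 95% confidence interval from 0.06 to 1.12 and a limma adjusted p of 0.180). Rian, another maternal non-coding RNA, and Dio3, which inactivates thyroid hormone, were each detected on 3 arrays and differed by 0.05 and 0.10. Rtl1, a neighbour of Dlk1 from the further imprinted list, differed by 0.31 (limma adjusted p = 0.292).

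Within the types, genes of the paternal allele varied more between tumours than those of the maternal allele. The 12 measured paternal genes had a median SD of 1.16 within the types, the 11 maternal genes 0.35 and all genes 0.45. Over all genes the 90th percentile of this SD was 0.88, and 8 paternal and 0 maternal genes lay above it. The SD was above 1 for Igf2, Dlk1, Mest, Nnat, Nap1l5, Impact and Rasgrf1 of the paternal group and for Grb10, as for 6.63% of all genes. This is a description without a test, and the allele each gene uses is background from other mouse tissues. Some of the spread came from single tumours. Without Type 1 replicates 6 and 7 and Type 2 replicate 3, chosen after their values were seen, 5 paternal genes lay above the 90th percentile and the median SD of the 12 was 0.80.

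**Figure D4:**
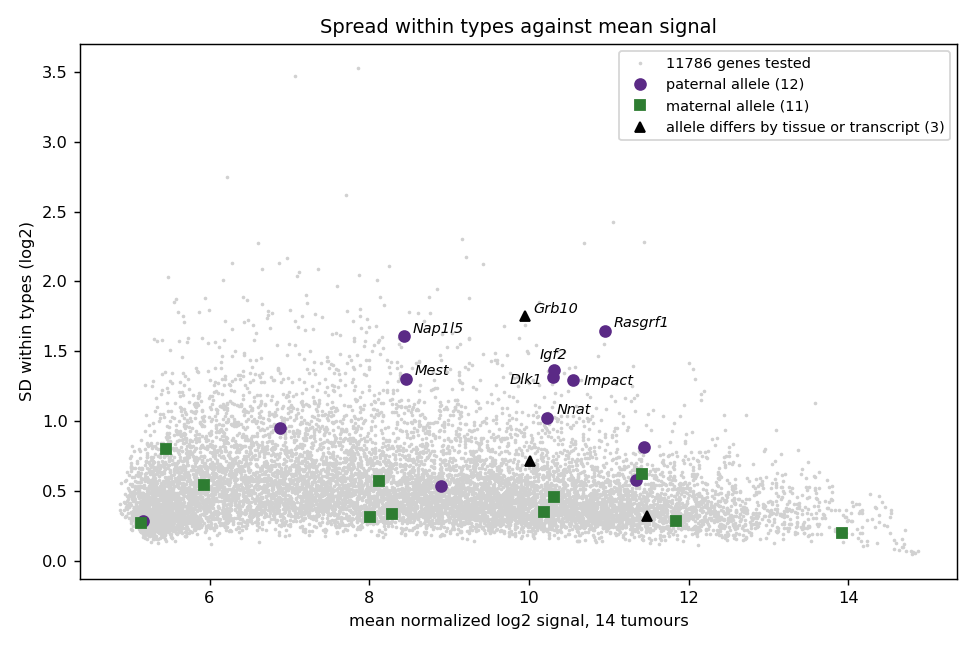
SD within the types against mean normalized log2 signal, with grey dots for 11786 genes, circles for 12 genes of the paternal allele, squares for 11 of the maternal allele and triangles for 3 whose allele differs by tissue or transcript; names mark SDs above 1. Of the 8 named genes 7 are paternal, and the maternal genes lie among the other genes.

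Rasgrf1, which encodes a Ras exchange factor of neurons, had a range of 82.7-fold over the tumours. It read 11.05, 10.93, 10.33, 11.75, 12.42, 9.19 and 9.03 in Type 1 and 8.58, 11.59, 10.85, 10.79, 14.95, 11.80 and 10.01 in Type 2. Type 2 replicate 5 stood at the top and Type 2 replicate 1 at the bottom. The type difference was -0.67 (95% confidence interval -2.35 to 1.01).

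Mest, whose protein resembles hydrolases and is named for its expression in embryonic mesoderm, was near background in a single tumour. It read 8.36, 9.64, 9.18, 8.22, 8.49, 4.75 and 8.96 in Type 1 and 8.78, 8.49, 8.55, 7.87, 10.48, 8.85 and 7.82 in Type 2. Type 1 replicate 6 was the low one and the only array on which this probe was not detected. By this probe, on the background-corrected scale, the signal was at least 9.72-fold below the median of the other Type 1 tumours. The bound is the lowest signal of the probes detected on that array. The measured deviation of -3.98 log2 units was -1.95 without background correction. The other Mest probes read 5.47 and 4.85 there, the lowest of the 14 tumours for each. The probe that read 5.47 was detected on all 7 Type 1 arrays, so some Mest signal was detected in that tumour. The 4 measured neighbours of Mest within 500 kb had a median deviation of -0.00 in that tumour, and Copg2, the coat protein gene that overlaps the Mest locus, read 8.55, the highest of Type 1.

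Nap1l5, a nucleosome assembly protein-like gene that lies within an intron of another gene on the same chromosome, was near background in that tumour too. It read 9.43, 9.17, 8.67, 10.08, 9.95, 4.82 and 9.19 in Type 1 and 7.85, 9.15, 5.21, 8.17, 9.12, 9.10 and 8.11 in Type 2. Type 1 replicate 6 and Type 2 replicate 3 were the 2 low tumours, and Nap1l5 was not detected in either. It was at least 14.6-fold and 9.69-fold lower there than the median of the other tumours of the type. The measured deviations of -4.49 and -3.42 were -2.38 and -1.72 without background correction. Mest was not low in Type 2 replicate 3. Over all genes, 0.577% had a lowest tumour at least 2 log2 units under the next of its type. Of the imprinted genes measured, Mest, Nap1l5 and Impact did. The cut was added with these values known, so the share is no test.

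The 617 measured genes of chromosome 6 had a median deviation of -0.27 in Type 1 replicate 6, the lowest of Type 1 for that chromosome. Over 280 combinations of tumour and chromosome such medians ran from -0.51 to 0.64, with a median absolute value of 0.09. Whether the low chromosome median bears on the 2 genes was not tested.

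Impact, which encodes an inhibitor of the stress kinase GCN2 and lies on chromosome 18, was low in a different tumour. It read 11.37, 9.98, 11.98, 11.59, 11.86, 11.17 and 7.38 in Type 1 and 10.99, 11.08, 11.37, 9.64, 9.17, 10.34 and 9.78 in Type 2. Type 1 replicate 7 was the lowest, with a deviation of -4.10, and the second Impact probe was not detected there while it was on the other 13 arrays. The 302 measured genes of chromosome 18 had a median deviation of -0.32 in that tumour. The type difference of Impact was 0.54 (95% confidence interval -0.76 to 1.84).

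**Figure D5:**
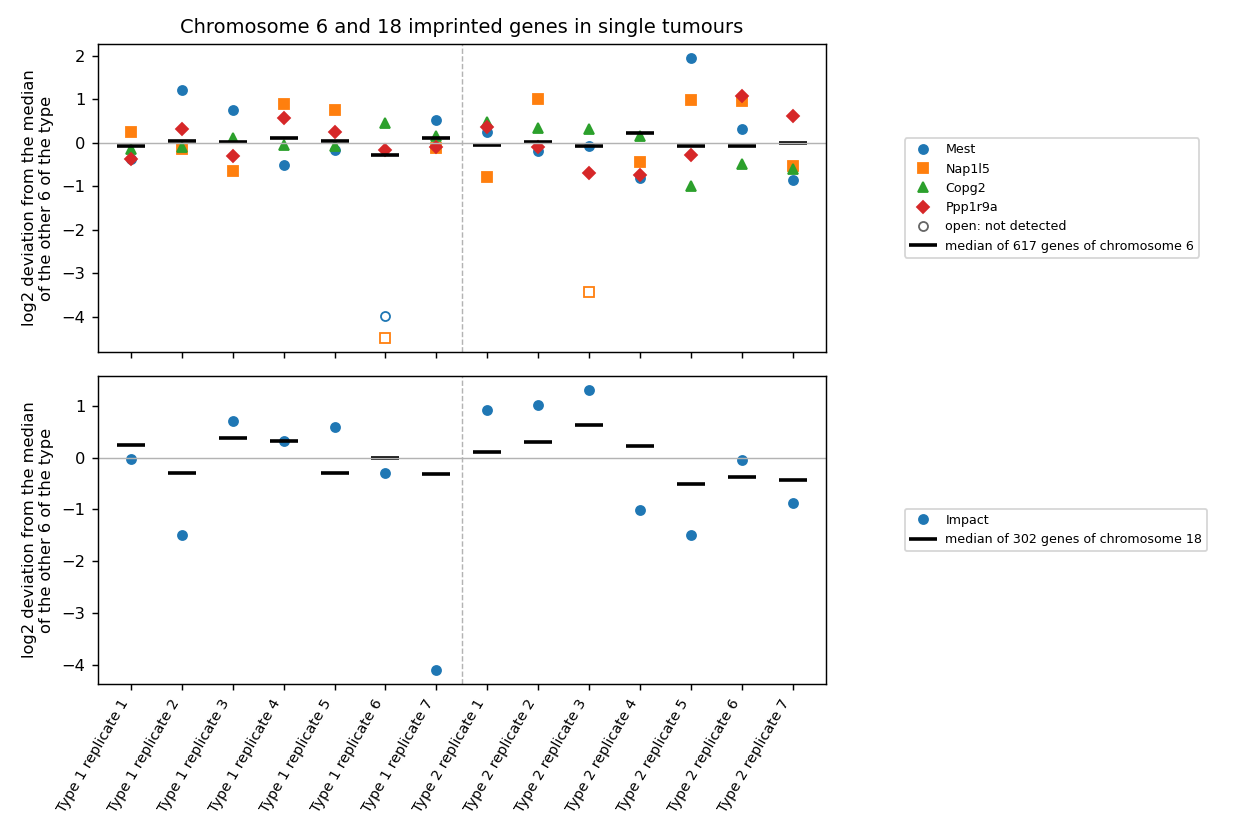
Deviation of each tumour from the median of the other 6 of its type, in log2 units, for Mest, Nap1l5, Copg2 and Ppp1r9a of chromosome 6 (top) and Impact of chromosome 18 (bottom), with open markers where the probe was not detected, so that the true deviation is not measured, and black dashes for the median of all measured genes of that chromosome. Mest and Nap1l5 are open markers in Type 1 replicate 6. On the background-corrected scale their plotted probes lay at least 9.72-fold and 14.6-fold below the median of the other Type 1 tumours. Impact lies at -4.10 in Type 1 replicate 7.

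Of the remaining single or leading genes of their domains, Ppp1r9a, which encodes the actin-binding synaptic protein neurabin, differed by 0.56 (with a 95% confidence interval from 0.10 to 1.02 and a limma adjusted p of 0.148) and ranged from 10.27 to 11.09 in Type 1 and from 9.33 to 10.92 in Type 2. Commd1, a regulator of copper handling and NF-kappaB, differed by 0.32 (95% confidence interval -0.05 to 0.69), with tumours between 11.32 and 12.39. Inpp5f, an inositol phosphatase gene, differed by 0.02 (95% confidence interval -0.62 to 0.66). Copg2 differed by -0.20 (95% confidence interval -0.58 to 0.19), by -0.66 in batch 1 and 0.27 in batch 2, Mest by -0.40 (95% confidence interval -1.77 to 0.96) and Nap1l5 by 0.61 (95% confidence interval -1.08 to 2.31).

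Known pairs of neighbours or partners were compared over the 14 tumours after the mean of each type and batch was subtracted. Of 19 pairs 7 could be computed, and 0 passed a two-sided permutation test, adjusted or unadjusted. Mest and Copg2 had a Pearson r of -0.65 (permutation p = 0.0868; adjusted p = 0.608) and a Spearman rho of -0.56 (permutation p = 0.102; adjusted p = 0.714). Within batches the r was -0.43 and -0.87. Without Type 1 replicate 6 and Type 2 replicate 5, the tumours farthest from the median of Mest, r was 0.72, so the negative relation rested on those tumours. The other 6 pairs had r between -0.34 and 0.29.

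Of 25 genes of the machinery that sets or keeps imprints, 19 were measured and 0 passed in either direction (limma; 0 also at an unadjusted p under 0.05), with a median of 0.03. The lowest p-values were those of the histone methyltransferase genes Setdb1, at 0.41 (limma adjusted p = 0.263), and Ehmt2, at 0.31 (adjusted p = 0.290).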

How the data were processed

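Each of 14 arrays, Illumina bead arrays of a single colour, held the total RNA of 1 tumour. The deposited table listed 45281 probes, with a signal intensity and a p-value of detection in columns of their own per the file headers. These signals carried no normalization. The submitters' processing notes name BeadStudio, without a version. Another table, deposited by the authors, held processed log2 values for 38502 probes; it followed the log2 signals of the same array at r between 0.991 and 0.998 over 4554 bright probes, array medians lay between 2.67 and 2.69, and its scale and the centring of each probe are unknown. Its values were used in 1 of the alternatives.

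Background was removed by normexp with controls inferred from detection, an offset of 16 was added and arrays were quantile-normalized (function neqc, limma 3.58.1, run under R 4.3.3). Gene names are those of the platform annotation and some may be outdated: 32034 probes had 1 gene symbol, 16 several and 13231 none. The kept probe with the highest mean stood for its gene, and 12 of the 26 imprinted genes had more than 1. Between 19299 and 20868 probes were detected per array; the number of arrays limits the precision. Types were compared with limma (lmFit, eBayes) in a model of type and batch, and p-values were adjusted by Benjamini-Hochberg over all genes or all probes; the fit was tested on simulated data. Pairs used 100000 permutations within type and batch.

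Every listed gene was accounted for. Called genes were given in full, others by range, difference and interval where the unadjusted p was under 0.05 or they led their domain, and tumours were named at the extremes. The genes and lists were chosen with earlier results of these data known. The labels do not say whether any tumours share an animal or litter, so the p-values reflect how these tumours varied, which may in part be technical. Replicate numbers follow accession order and pair nothing. A component of the genotype is not reported here. Alternatives covered batch, chip, background, scaling, the authors' values, filters, probe averaging, weights, the variance prior, marker covariates and each tumour left out.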

Additional observations from a re-analysis of the deposited data

Results flagged for a closer look

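In 6 cases a tumour stood apart from the others of its type beyond Dixon's 95% critical value for 7 samples. Chance flags about 1 in 20 groups, and the 6 cases fell in 4 of the 26 genes, 15.4%, against 11.9% of all genes tested. The low cases were Igf2r in Type 1 replicate 3 at 6.79, Mest in Type 1 replicate 6 at 4.75, Nap1l5 in Type 1 replicate 6 at 4.82 and Nap1l5 in Type 2 replicate 3 at 5.21. The high cases were Mest in Type 2 replicate 5 at 10.48 and Kcnq1ot1 in Type 2 replicate 1 at 8.91. Impact in Type 1 replicate 7, at 7.38, lay just inside the critical value.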

How the results depend on the processing

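The count of imprinted genes called between the types was 0 and changed in few settings: 1 in batch 2 alone (Mkrn3), 2 with the mean of the probes of a gene (Gnas and H13, means that include probes kept through Type 1 alone), 1 with array weights (Phlda2) and 0 to 2 when each tumour was left out, where the calls were Kcnq1ot1 and Phlda2 without Type 2 replicate 1, Blcap and Phlda2 without Type 2 replicate 2, Phlda2 without Type 2 replicate 4 and Gnas without Type 1 replicate 6. The count of called probes was 3. It was 2, without the H13 probe, in batch 1 alone, with chip as a random block, with median scaling and with no detection filter. With array weights it was 4. It was 1 with no batch term, in batch 2 alone (a Mkrn3 probe), with a stricter detection filter, with the neuron covariate (another H13 probe) and when the 2 tumours richest in choroid plexus markers were left out, and 0 with the fibroblast covariate; with each tumour left out the count was 1 to 4, and it was 1 without Type 1 replicate 2. The 2 Gnas probes lost their call in 4 and 5 of 28 settings and stayed above 0 in all of them. For ILMN_3075080, kept through Type 1 alone, this is no support for a difference. The same holds for the Phlda2 calls above, whose probe was kept through Type 2 alone. The count of genes that differed between batches was 0, and 3 with median scaling. No interaction and no pair passed in any setting run. Over all genes, calls fell from 547 to 20 with the fibroblast covariate, 33 with the neuron covariate, 106 without the 2 tumours named above and 195 without Type 1 replicate 2; the cause was not tested. Without background correction the deviations were -1.95 for Mest, -2.38 and -1.72 for Nap1l5 and -3.36 for Impact. Settings for probes, batches and single tumours were added after the data were seen. No paired analysis was possible because replicate numbers were given in accession order. Signals near background limit Phlda2, Rian, Dio3 and Meg3.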

Other observations

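Type 2 replicate 7 stood apart in skeletal muscle markers, of which 3 of 8 were measured, with a summed signal of 2177 against at most 260 in any other tumour. Across the 14 tumours, after type and batch means were subtracted, the mean of the fibroblast and meningeal markers and that of the mature neuron markers were each set against the 26 imprinted genes. Of these 52 relations 0 passed adjustment and 7 had an unadjusted permutation p under 0.05. The lowest was that of the fibroblast markers with Rian, at a Pearson r of -0.84 (permutation p = 0.00292, adjusted p = 0.152) and a Spearman rho of -0.81 (permutation p = 0.0063, adjusted p = 0.185), with r of -0.87 in batch 1 and -0.23 in batch 2 and -0.81 without the 2 tumours farthest from the median of the markers. Rian was detected on 3 arrays.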
